A study of Homo sapiens with 18 samples.

Results

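The core spliceosomal snRNP protein genes were taken as the 47 entries, of 20705 in the count table, whose symbols belong to the SNRP, LSM, SF3A, SF3B, PRPF and U2AF series of gene names. They comprised 8 Sm protein genes, 4 genes of proteins specific to the U1 or U2 snRNP, 6 genes of the LSm ring of the U6 snRNP, 6 other LSM genes, 9 SF3A and SF3B genes, 2 U2AF genes and 12 PRPF genes. Membership rests on the gene name alone, and expression played no part in it. The 6 other LSM genes (LSM1, LSM10, LSM11, LSM12, LSM14A and LSM14B) lie outside the U6 ring and are members by name only. The set is therefore wider than the core spliceosome. LSM8, SNRNP70 under its older symbol SNRP70, and PRPF6 had no entry under the names searched and were not analysed here among the members. SF3B14 is the older symbol of SF3B6.

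The cells were human melanoma lines, CHL1 and A375, which the labels give as wild type. The paper lists CHL1 as wild type for BRAF and NRAS with mutant p53, and A375 as BRAF mutant with wild-type p53. Palbociclib (1 μM) blocks the cell cycle kinases CDK4 and CDK6 (CDK4/6i), and GSK3326595 (500 nM) blocks the arginine methyltransferase PRMT5 (PRMT5i). The study asked which alternative splicing events palbociclib induces and how far these overlap with the events under GSK3326595. It compared gene expression as well. Splicing events are not covered here, where only gene counts were used. CHL1 cells received DMSO for 72 hours (control), palbociclib for 72 hours or 6 days, or GSK3326595 for 72 hours, and A375 cells received the same plus DMSO for 6 days. Each of the 9 groups had 2 libraries, 18 in all, and the labels do not say whether these were separate cultures. The p-values measure the spread between libraries of a group, pooled over all groups of a fit, and this spread may be technical. The CHL1 libraries of 6 days could only be set against the control of 72 hours, so time in culture and CDK4/6i cannot be told apart there. By the prefix of their names the A375 libraries of 72 hours form a library set apart from all others. The labels do not say what the prefix stands for. At 72 hours cell line and library set therefore cannot be told apart.

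Spliceosomal snRNPs are RNA-protein particles that recognise and remove introns. In the U1, U2, U4 and U5 particles the snRNA carries a ring of Sm proteins, whereas the U6 snRNA carries a related ring of LSm proteins. Several Sm proteins (SmB, SmD1 and SmD3) are methylated on arginine by PRMT5 together with its partners WDR77 and CLNS1A before the SMN complex loads the ring onto the snRNA. SF3A, SF3B and U2AF act where the branch point and the 3′ splice site are recognised, and the PRPF proteins mostly belong to the tri-snRNP or act later in the splicing cycle.

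The members lie on 21 chromosomes, with 8 of them on chromosome 19. RefSeq promoter sequence was available for 38 members. Of the 6 motifs searched on both strands in the 250 bases before the start (CCGGAAGT, an ETS-like site, TTTNGCGC, an E2F-like site, AAGATGGC, a YY1-like site, the CCAAT box, the TATAAA box and an NRF1-like site), the ETS-like letters were present in 10 of 38 members (26.3%), compared with 5.1% of 15843 promoters of protein-coding genes. CCAAT was found in 15 members (39.5%, compared with 34.5% of all promoters), and the other 4 motifs were each found in 1 member (2.6%, compared with 2.0% for the E2F-like, 1.4% for the YY1-like, 1.5% for the NRF1-like motif and 9.2% for TATAAA). SNRPA1 held both the ETS-like letters and CCAAT, which cannot overlap by their letters. Of the 10 members with the ETS-like letters, 6 were SF3A or SF3B genes, whose windows of 60 bases upstream of the start are shown because they make up most of that group. The match is in capitals (on the reverse strand in SF3A3) and each window reads 5′ to 3′ on the strand of the gene (GRCh38.p14).
SF3A1, chr22:30356910-30356969, minus strand: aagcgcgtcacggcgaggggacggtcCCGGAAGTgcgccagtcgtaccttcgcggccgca
SF3A2, chr19:2236764-2236823, plus strand: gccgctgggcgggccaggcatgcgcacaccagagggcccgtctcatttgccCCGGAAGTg
SF3A3, chr1:37990058-37990117, minus strand: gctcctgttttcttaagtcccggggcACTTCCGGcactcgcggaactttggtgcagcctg
SF3B14, chr2:24076452-24076511, minus strand: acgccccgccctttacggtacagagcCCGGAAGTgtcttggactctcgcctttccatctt
SF3B2, chr11:66052285-66052344, plus strand: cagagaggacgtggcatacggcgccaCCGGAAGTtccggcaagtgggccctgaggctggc
SF3B4, chr1:149927804-149927863, minus strand: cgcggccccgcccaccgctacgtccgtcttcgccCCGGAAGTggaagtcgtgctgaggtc
These matches describe the windows and do not show that a factor binds there.

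Totals ranged from 16213475 to 37424081 reads counted on genes. In 4 libraries, both of CHL1 PRMT5i and both of the A375 control of 6 days, genes with a GC-rich transcript were counted low relative to GC-poor ones, by -2.47, -1.96, -2.26 and -1.12 on the log2 scale, whereas the other 14 libraries lay between -0.18 and 0.47. By their names all 4 belong to the larger library set. The transcripts of the members spanned 35.7% to 66.5% GC, so the number of members called in each comparison that used these libraries is given with and without a correction for GC content. Of the melanocyte markers, MITF was present in both lines (group means of 63.9 to 185.2 CPM, counts scaled to equal library size), DCT reached 33.6 to 125.5 CPM in CHL1 and at most 1.40 CPM in A375, and TYR stayed at or below 2.92 CPM. SOX10 and MLANA were not analysed here. PMEL, TYRP1 and S100B were measured, but their values are not given. Of the markers of other cells, 3 were in the table (KRT5, KRT14 and PTPRC). Their summed level was 6.93 to 16.01 CPM in CHL1, nearly all of it from PTPRC, a leukocyte gene, with KRT5 at 0, and 2.14 to 12.0 CPM in A375, mostly from KRT14. In bulk RNA, fewer cells of a type and less RNA per cell cannot be told apart.

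At 72 hours of CDK4/6i, no member was called in CHL1, and 6 of 47 had an unadjusted p below 0.05. DESeq2 also called 0. Over all genes 4.98% were called, 2.27% higher and 2.72% lower (edgeR's quasi-likelihood test, Benjamini-Hochberg adjusted p below 0.05 over all 20705 genes, which makes a differentially expressed gene, DEG). Without SNRPN, which had 0 or 1 read in every CHL1 library, the 46 remaining members had a median log2 fold change of -0.14, compared with -0.01 for genes of at least 1 CPM, and 33 of the 46 were below 0. SNRPD1, which encodes SmD1, measured 69.6 and 55.3 CPM in the controls and 44.7 and 40.5 CPM after CDK4/6i. The 2 groups did not overlap, but its log2 fold change of -0.55 ± 0.192 (SE) was not called (adjusted p = 0.124). A fit of the compared groups alone called 9 members, all lower, among them SNRPD1, SNRPG, SNRPB and SNRPA. The share of all genes called in that fit is not given here, so this count cannot be read as particular to the members.

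After 6 days of CDK4/6i in CHL1, 6 members were down-regulated and 0 up-regulated, against 16.6% of all genes called (8.83% higher, 7.8% lower). The fallen genes were SF3B3, SNRPD1, SNRPG, U2AF1, SNRPA and LSM2, which encode proteins of the SF3b complex, the Sm ring (SmD1 and SmG), the U2AF dimer, the U1 snRNP and the U6 LSm ring. The 46 measured members had a median of -0.26, and 36 of them were below 0, while 50.3% of genes with at least 1 CPM were above 0.
SF3B3 measured 235.8 and 233.2 CPM in the controls and 147.7 and 106 CPM at 6 days. Its libraries of the 2 groups lay far apart, with a log2 fold change of -0.89 ± 0.173 (1.85-fold lower, adjusted p = 0.00609).
For SNRPD1 (GRCh37 chr18:19192275-19213485) the 6-day libraries measured 38 and 31.6 CPM, below both controls and below both libraries of 72 hours. The change from control was -0.84 ± 0.194 (1.79-fold lower, adjusted p = 0.0126).
SNRPG, another Sm gene, measured 63.7 and 57 CPM in the controls, 46.1 and 42.7 CPM at 72 hours and 36.9 and 34.3 CPM at 6 days. The 3 groups did not overlap, and the 6-day change was -0.76 ± 0.204 (adjusted p = 0.0254).
U2AF1, the small subunit that reads the AG of the 3′ splice site, went from 112.6 and 99 CPM to 72.5 and 59.6 CPM (-0.68 ± 0.164, adjusted p = 0.016). Its partner gene U2AF2 measured 34.3 and 30.2 CPM in the controls and 35 and 33.5 CPM at 6 days, so its groups overlapped. Of the remaining Sm genes, SNRPE stood at -0.58 and was not called (adjusted p = 0.058), and SNRPB, SNRPD2, SNRPD3 and SNRPF lay between -0.38 and -0.12 and were not called.
The number of members called depended on the fit, and the share of all genes called is given here only for the GC correction. The number was 15 with the GC correction (14 lower, with 28.8% of all genes called). It was 14 without the 2 CHL1 PRMT5i libraries (13 lower) and 11 with DESeq2 (10 lower), and each of these fits included the same 6 genes. It fell to 0 without control replicate 1, to 1 without control replicate 2, to 4 without 6-day replicate 1 and to 2 without 6-day replicate 2, of which 1 was higher. Of the other-cell markers PTPRC was also higher at 6 days, with 7.18 and 6.86 CPM in the controls and 15.7 and 15.6 CPM after CDK4/6i (1.16, adjusted p = 0.00318), and its part in these results was not tested.

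**Figure D1:**
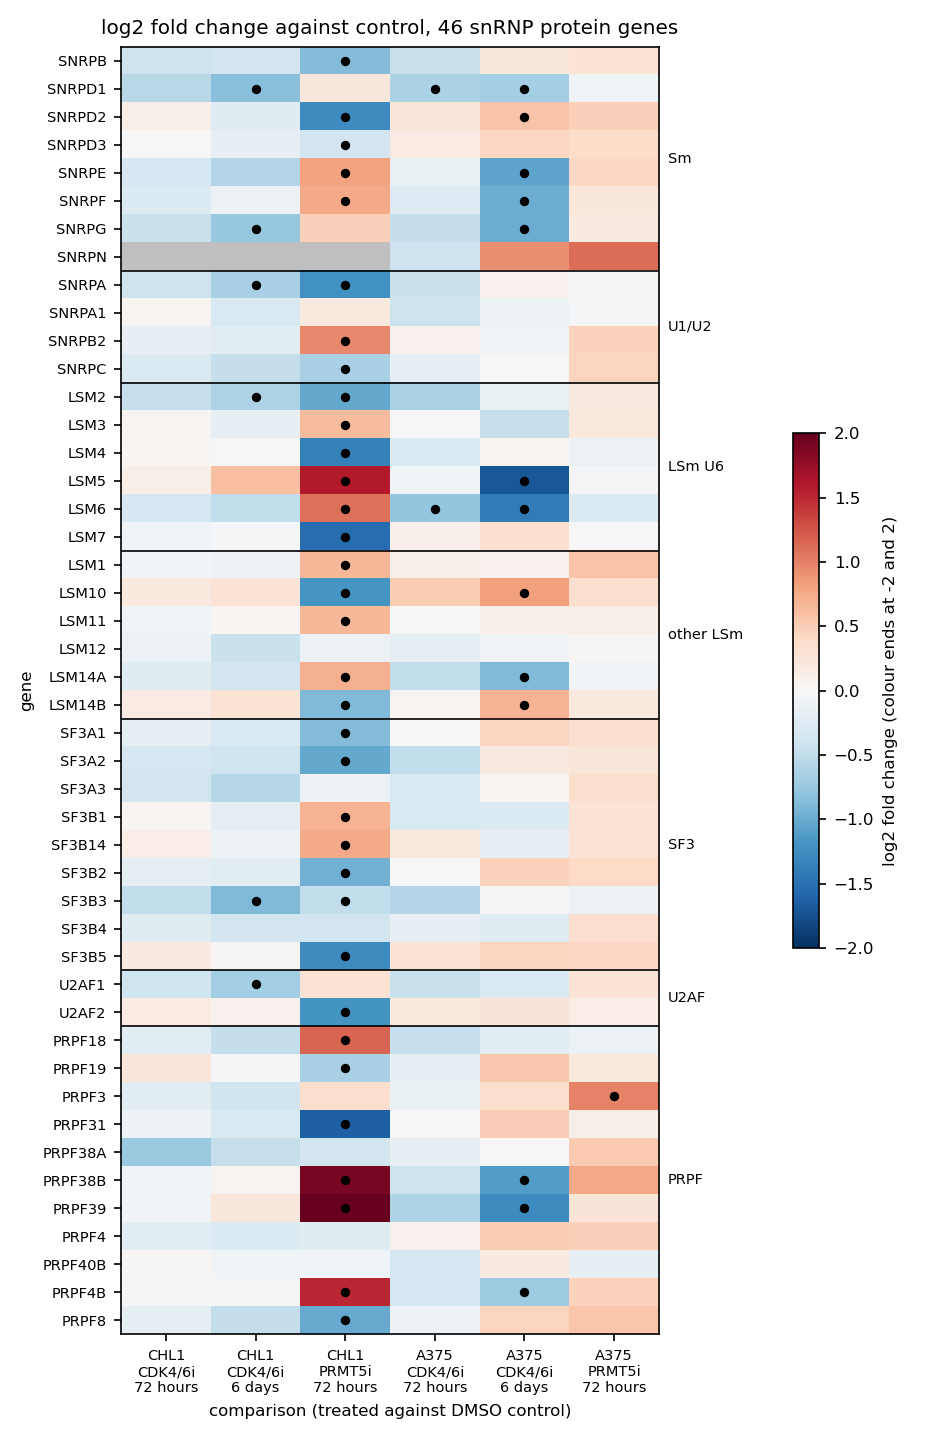
Log2 fold change against control of 46 members (rows, grouped by family) in the 6 treated groups (columns); red is higher and blue is lower after treatment, colours end at -2 and 2, dots mark called genes, and grey marks SNRPN in CHL1, where it had 0 or 1 read. The CHL1 PRMT5i column holds 34 dots in both colours and the A375 PRMT5i column 1 dot, at PRPF3, in a column that is mostly pale red.

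In A375, CDK4/6i for 72 hours gave 2 called members, LSM6 and SNRPD1, both down-regulated, against 13.3% of all genes called (6.22% higher, 7.11% lower). The median over the 46 members other than SNRPN was -0.18, compared with -0.02 for genes of at least 1 CPM, and 32 of these members were below 0. LSM6, of the U6 LSm ring, measured 14.7 and 15.6 CPM in the controls and 9.07 and 8.7 CPM after CDK4/6i. Its change was -0.77 ± 0.213 (1.71-fold lower, adjusted p = 0.0254).
SNRPD1 went from 63.5 and 82 CPM to 45.9 and 48.1 CPM without overlap. The change of -0.63 ± 0.187 (adjusted p = 0.0355) lay beside that of CHL1 at the same time, -0.55, and the difference between the lines was 0.02. Of the genes called in CHL1 at 6 days, SF3B3 (-0.58), U2AF1 (-0.45) and SNRPG (-0.48) were below 0 in A375 without being called, with adjusted p-values of 0.0531, 0.0964 and 0.136. With the GC correction 12 members were called, all lower (24.9% of all genes were called), with LSM6 but not SNRPD1 (-0.47) among them. Without the A375 control libraries of 6 days 15 members were called, 14 of them lower, and the share of all genes is not given for that fit. Leaving out any 1 of the 4 libraries left 0 calls. The A375 libraries of 72 hours were taken as paired by replicate number, which the labels do not state. With the number as a block, in a fit that left out the A375 libraries of 6 days, 25 members were called, 5 higher and 20 lower. In that fit 42.3% of all genes were called (20.6% higher, 21.7% lower). What the block and the left-out libraries each added was not tested. LSM6 and SNRPD1 were among the 20, as were SF3B3, U2AF1, SNRPG and SNRPB (-0.44), and LSM10 (0.52) and SNRPD2 (0.25) were among the 5. KRT14 was the 1 other-cell marker called higher there (1.94 and 2.01 CPM, then 6.82 and 7.97 CPM), and its part was not tested.

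After 6 days of CDK4/6i in A375, 11 members were down-regulated and 3 up-regulated, against 43.1% of all genes called (21.3% lower, 21.8% higher). Among the falls were those of LSM5 and LSM6, of the U6 ring, and PRPF39, a U1-associated factor. PRPF38B, PRPF4B, LSM14A and the Sm genes SNRPE, SNRPG, SNRPF and SNRPD1 also fell. LSM10, a protein of the histone-processing U7 snRNP, LSM14B and SNRPD2 were called higher. With the GC correction 13 members were called, 2 higher and 11 lower, when 37.9% of all genes were called (19.7% higher, 18.2% lower). Of these 13, 5 were shared with the 14, namely LSM5, LSM6, SNRPF, PRPF38B (-0.66) and LSM14A (-0.46). The correction added SNRPB2 (0.82) and SF3B14 (0.49) as higher, and U2AF1 (-0.67), SF3B4, LSM2, LSM4, SNRPA and PRPF40B as lower. PRPF39 (-0.28), SNRPE (-0.41) and SNRPG (-0.42) lost their call with it, and PRPF4B turned sign (0.17). LSM10 (0.29), LSM14B (0.20) and SNRPD2 (0.14) lost their call too, and a fit of the compared groups alone called none of these 3. With 1 library left out they were called in 2, 3 and 1 of 4 fits respectively. All 11 fallen members were among the 20 with less than 45% GC, and the 3 that rose were among the 19 with at least 50% GC. Spearman's rho of the change with GC content was 0.733 across 46 members, and -0.119 after the correction. This describes genes of the same 4 libraries, which are not independent.
LSM6 measured 26.9 and 23.1 CPM in the 6-day controls and 8.94 and 9.99 CPM after CDK4/6i, without overlap. Its change was -1.40 ± 0.208 (adjusted p = 0.000123), -0.87 with the GC correction and -0.68 against the A375 control of 72 hours, and it was called in all 3 fits.
SNRPF, the gene of SmF, went from 32.8 and 30 CPM to 16.7 and 15 CPM (-0.99 ± 0.214, adjusted p = 0.00194), with -0.83 after the GC correction and -0.88 against the control of 72 hours, called each time. LSM5 kept its call with the GC correction (-1.69 without, -0.64 with it), but its 72-hour controls measured only 20.5 and 24.2 CPM, about the same as the 23.9 and 19.7 CPM of the treated libraries, whereas its 6-day controls measured 86 and 54.6 CPM.
SNRPD1 measured 59.3 and 62 CPM in the controls and 39.9 and 36.1 CPM after CDK4/6i (-0.67 ± 0.186, adjusted p = 0.00873). It was called against the control of 72 hours (-0.94) and not with the GC correction (-0.16).
Against the control of 72 hours, which by its library names belongs to another set, 13 members were called (12 lower), 3 of them shared with the 14. The share of all genes called against that control is not given. SNRPD2 and LSM14B lay below 0 (-0.36 and -0.16, not called). Without replicate 2 of the 6-day control 32 members were called, 19 of them higher.

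**Figure D2:**
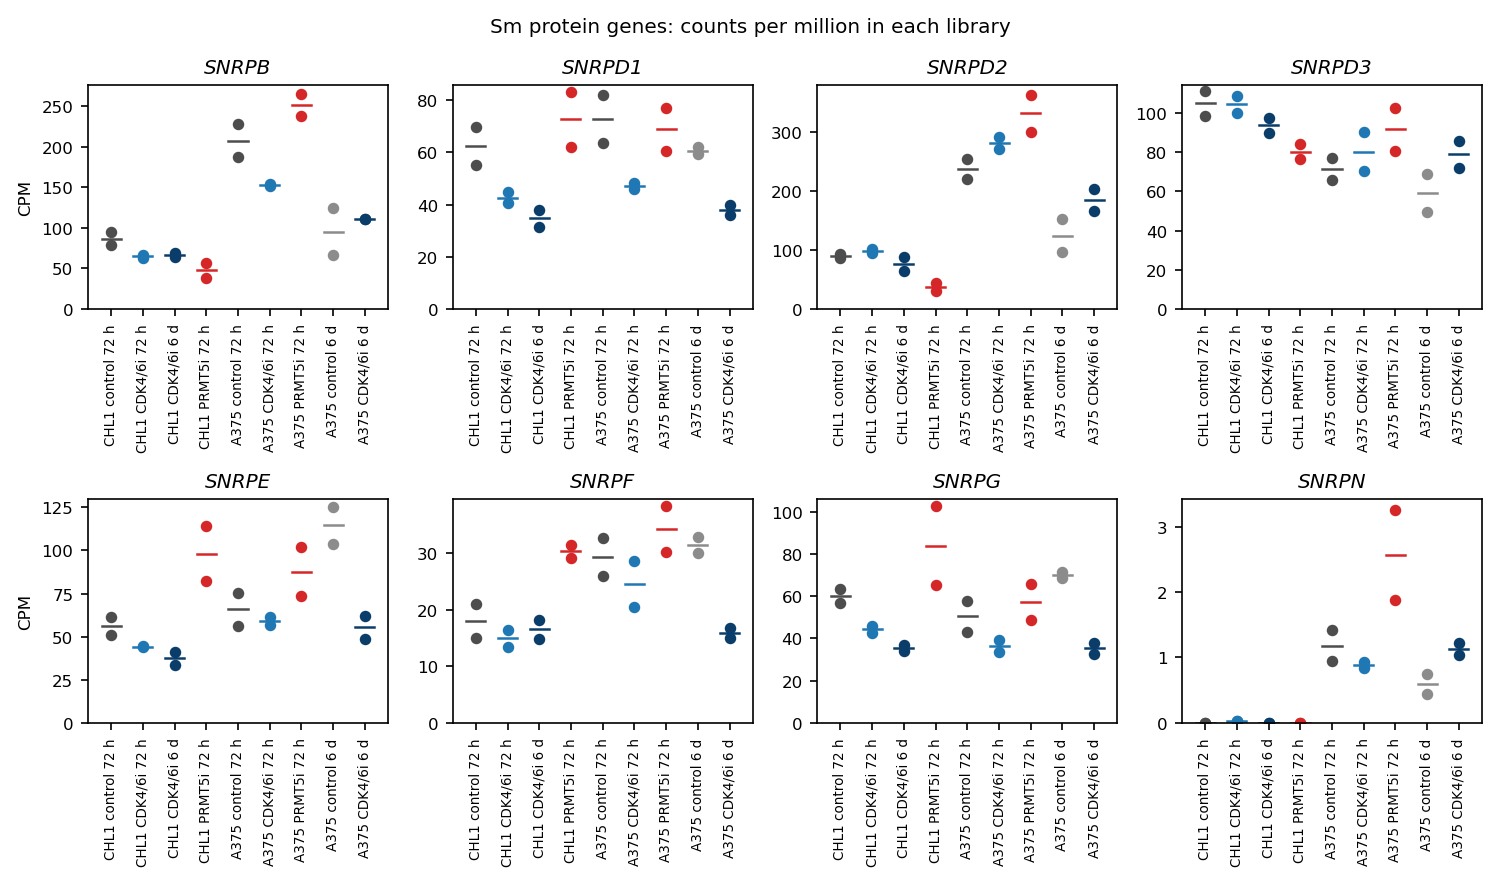
Library-size scaled counts (CPM) of the 8 Sm protein genes in each of the 18 libraries (points) by group, with the group mean as a bar; each vertical axis starts at 0. SNRPD1 and SNRPG lay lower in every CDK4/6i library than in the controls of the same comparison, and SNRPN had almost no reads in CHL1.

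With PRMT5i for 72 hours in A375, PRPF3, a U4/U6 snRNP protein, was the 1 member called (2.61% of all genes were called, 0.874% higher and 1.74% lower). It measured 81.3 and 81.2 CPM in the controls and 162.7 and 160 CPM after PRMT5i, in libraries that agreed closely within each group. The gene (GRCh37 chr1:150293928-150325709) was 1.99-fold higher, at 0.99 ± 0.172 on the log2 scale (adjusted p = 0.00791).
With the replicate number as a block, by which these libraries were taken as paired, 25 members were called, all higher. In that fit, which left out the A375 libraries of 6 days, 29.5% of all genes were called (14.1% higher, 15.4% lower). PRPF38B, PRPF8, SNRPD2, SNRPD3, SNRPE and SNRPB were among them, and SNRPD1 (-0.08) was not. In the fit without the block 37 of 47 lay above 0, with a median log2 fold change of 0.26, while the median of genes with at least 1 CPM was -0.01 and 49.4% of these were above 0. For 22 members both PRMT5i libraries exceeded both controls (26.2% of all genes did so) and for 2 both lay below (27.1% of all genes). PRPF38B measured 45.8 and 47.3 CPM in the controls and 71.1 and 85.8 CPM after PRMT5i (0.75 ± 0.204, adjusted p = 0.0618). PRPF8, the U5 protein at the centre of the spliceosome, measured 846.5 and 948.4 CPM and then 1228 and 1395 CPM, without overlap (0.55, not called without the block).
The U6 LSm ring genes stood nearest to 0 (median -0.01, 0 of 6 called), and the medians were 0.36 for the 12 PRPF genes, 0.33 for the 9 SF3 genes and 0.32 for the 8 Sm genes. PRPF3 had an adjusted p of 0.00134 with the GC correction, where PRPF38B (0.82), PRPF4B (0.59) and PRPF39 (0.40) were called too. Without any 1 of the 4 libraries 0 members were called, although the change of PRPF3 stayed between 0.98 and 1.003, and without the A375 control libraries of 6 days 7 were called, all higher.

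Set directly against CDK4/6i at 72 hours in A375, PRMT5i left 6 members higher and 0 lower, against 5.45% of all genes called (2.37% higher, 3.09% lower). PRPF38B, PRPF3, PRPF39, PRPF4B, a kinase of the tri-snRNP, U2AF1 and SNRPN were the 6. Of the 47 members, 44 lay above 0 (52.9% of genes with at least 1 CPM did), the median was 0.42 compared with 0.03, and for 36 members both PRMT5i libraries exceeded both CDK4/6i libraries, as they did for 30.9% of all genes. In 0 members did both lie below, as they did for 29.1% of all genes.
PRPF38B measured 33.2 and 36.7 CPM with CDK4/6i and 71.1 and 85.8 CPM with PRMT5i (1.17 ± 0.206, 2.24-fold, adjusted p = 0.00493). U2AF1 measured 46.8 and 47.2 CPM, then 72.3 and 83.6 CPM, with the controls between them at 61.8 and 66.8 CPM. This put its change at 0.73 ± 0.173 (adjusted p = 0.0239).
PRPF39 also had its controls (30.9 and 34.3 CPM) between CDK4/6i (22.7 and 19.9 CPM) and PRMT5i (39.4 and 38.4 CPM), and changed by 0.87 ± 0.205 (adjusted p = 0.0228). SNRPN, a paralogue of SNRPB whose reads cannot be told from those of SNURF on the same transcript, was low, with 17 and 16 reads with CDK4/6i and 55 and 29 reads with PRMT5i (1.54 ± 0.427, adjusted p = 0.0459).
With the GC correction 18 members were called (15.6% of all genes were) and in a fit of the compared groups alone 25, all higher and all 6 included. The share of all genes is not given for the fit of the compared groups. With the replicate number as a block 33 were called, all higher and with the 6 among them. In that fit, which left out the A375 libraries of 6 days, 34.6% of all genes were called (18.4% higher, 16.3% lower). With 1 library left out the count was 0 without CDK4/6i replicate 1, 1 without CDK4/6i replicate 2, 2 without PRMT5i replicate 1 and 1 without PRMT5i replicate 2.

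**Figure D3:**
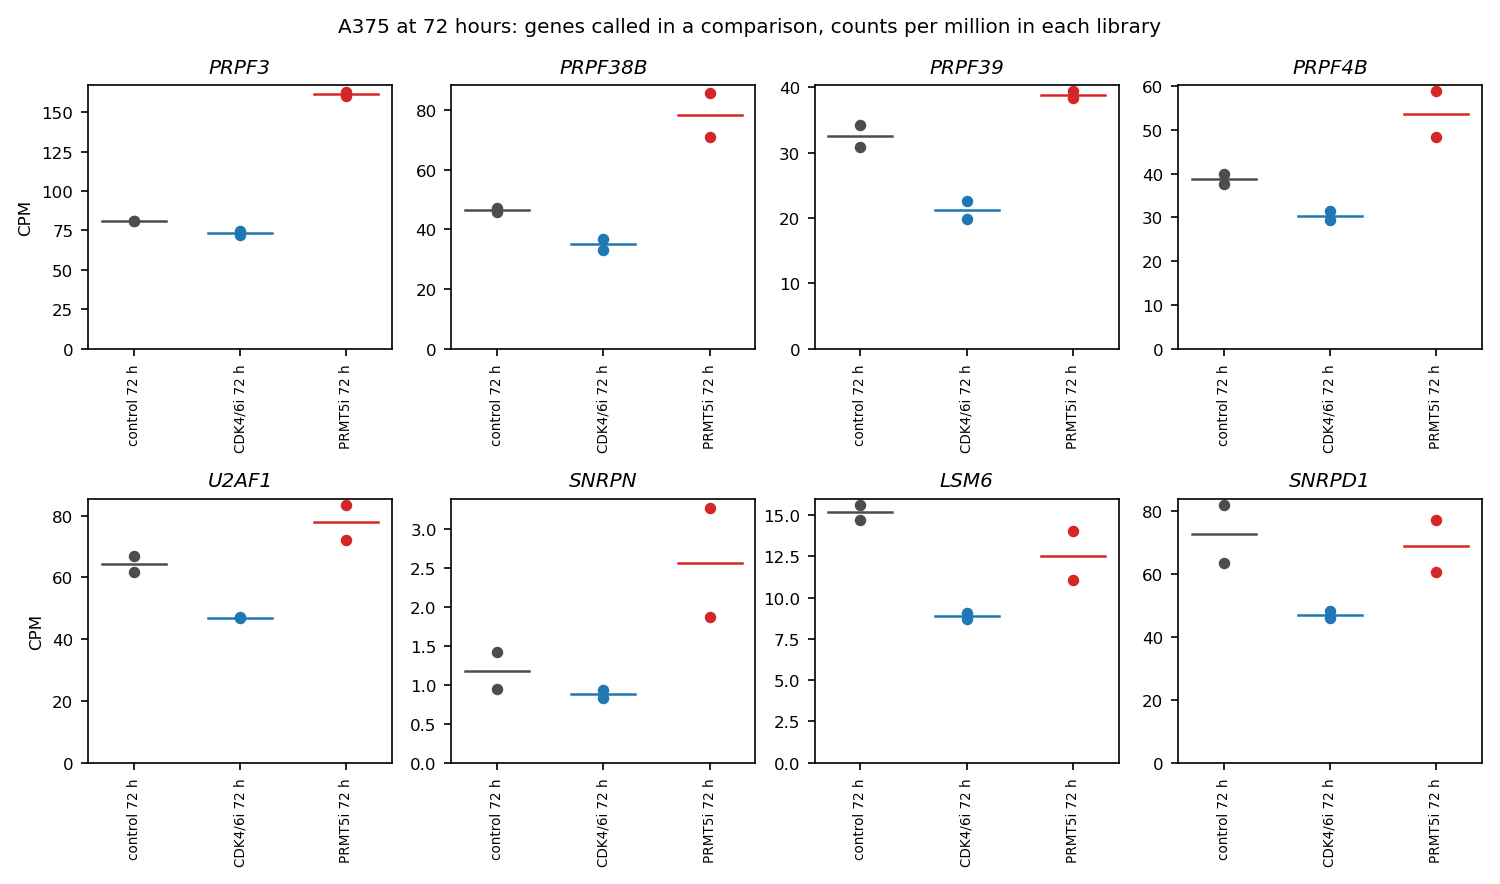
Library-size scaled counts (CPM) in each A375 library of 72 hours (points, with the group mean as a bar) for 8 members called in at least 1 comparison of these 6 libraries; each vertical axis starts at 0. Both PRMT5i libraries lie above both CDK4/6i libraries in all 8 panels, and for PRPF3 they reach 162.7 and 160 CPM.

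In CHL1, PRMT5i for 72 hours gave 16 up-regulated and 19 down-regulated members, against 54% of all genes called (26.4% higher, 27.6% lower). Among genes with at least 1 CPM the share called was 70% (34.9% higher, 35.2% lower), near the 74.5% of the members. The rises were led by PRPF39, PRPF38B and LSM5, and the falls by PRPF31, LSM7 and LSM4. GC content moved with the direction: of the 20 members with less than 45% GC, 15 rose and 1 fell (median 0.75), and of the 19 with at least 50% GC, 0 rose and 16 fell (median -1.02). Spearman's rho between log2 fold change and GC was -0.883 over the 46 members with reads, compared with -0.129 after the correction and -0.065 for PRMT5i in A375. With the correction 16 members were called, 6 higher and 10 lower, when 28.4% of all genes were called (14.6% higher, 13.8% lower), and 9 of these were shared with the 35.
PRPF39 (GRCh37 chr14:45553310-45585485) measured 39.1 and 36.3 CPM in the controls and 173.1 and 187.8 CPM after PRMT5i. It was 4.79-fold higher (2.26 ± 0.189, adjusted p = 8.22e-05), and its change was 1.06 with the GC correction, still called. FKBP3 overlaps the gene on the opposite strand, and whether the libraries kept the strand is not stated.
PRPF38B (GRCh37 chr1:109234932-109245550), a protein related to a factor of spliceosome activation, went from 56.5 and 55.5 CPM to 217.9 and 198.6 CPM. The rise was 3.72-fold (1.89 ± 0.159, adjusted p = 8.22e-05) and 1.18 on the log2 scale with the correction.
For both genes the treated and control libraries lay far apart, and their calls held without each of the 4 libraries in turn.
Falls that were called in both fits included PRPF31, a U4/U6 protein (-1.64, and -0.55 with the correction), PRPF8 (2.002-fold lower, and -0.47 with the correction), LSM7 (-1.53 and -0.43), and the Sm genes SNRPD2 (-1.26 and -0.56) and SNRPD3 (-0.39 and -0.69).
SNRPD2 (SmD2) measured 92.9 and 87.1 CPM in the controls and 30.8 and 44.5 CPM after PRMT5i. SNRPD3 (SmD3) measured 111.3 and 98.8 CPM and then 84 and 76.6 CPM, the groups again not overlapping, but with 1 library left out its call held in 1 of 4 fits. Of the other Sm genes, SNRPB fell (-0.87), SNRPE (0.81) and SNRPF (0.75) rose, and SNRPD1 (0.22) and SNRPG (0.48) were not called.
The correction removed the calls of SNRPB (0.21), SNRPE (-0.13), SNRPF (0.44), SF3B1 (-0.087), U2AF2 (0.015), LSM5 (0.34) and LSM4 (-0.26), and 4 of these, SNRPB, SNRPE, SF3B1 and U2AF2, changed sign, as did SNRPG (-0.41, not called in either fit). PTPRC was higher here too (13.1 and 14.9 CPM, 0.9965 on the log2 scale), and its part was not tested. The correction added U2AF1 (0.79), PRPF40B (1.03), SF3B4 (0.52) and PRPF3 (0.35) as higher and PRPF38A (-1.25), SNRPD1 (-0.62, from 0.22 without it) and LSM12 (-0.40) as lower.

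**Figure D4:**
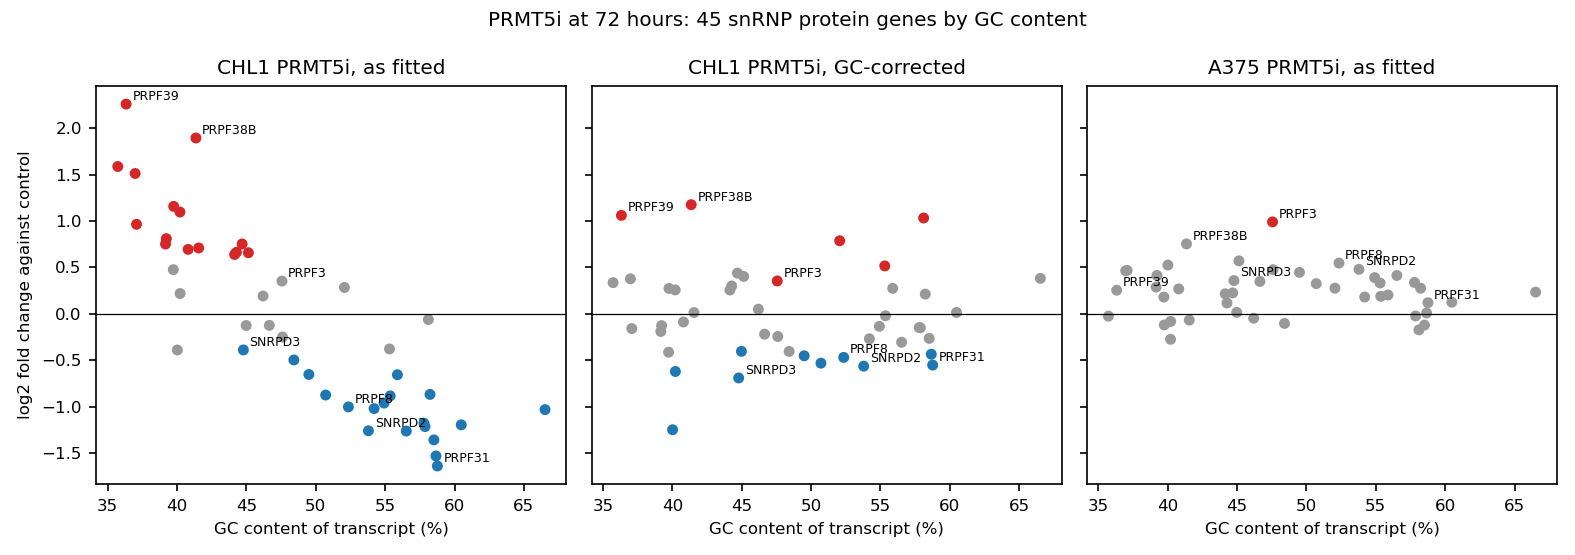
Log2 fold change after PRMT5i at 72 hours against GC content of the transcript (%) for 45 members, for CHL1 as fitted (left), CHL1 with the GC correction (middle) and A375 as fitted (right); red and blue points were called higher and lower, grey points were not called. In CHL1 the points descend from PRPF39 at 2.26 to PRPF31 at -1.64, and show no such descent after the correction, where PRPF38B, PRPF39 and PRPF40B lie above 1.

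Against CDK4/6i at 72 hours in CHL1, PRMT5i left 20 members higher and 16 lower, against 57.8% of all genes called (28.4% higher, 29.4% lower), with a rho of -0.888 with GC content. Among genes with at least 1 CPM the share called was 73.5%, near the 76.6% of the members. The GC correction left 10 higher and 6 lower, and 10 of these 16 were called in the same direction as among the 36. With it 41.5% of all genes were called. SF3A2 was called lower without the correction (-0.69) and higher with it (0.97, adjusted p = 0.000548). PRPF39 (2.31, and 1.07 with the correction), PRPF38B (1.96 and 1.15) and U2AF1 (0.68 and 1.195) were higher in both fits, and SNRPD2 (-1.38 and -0.67) and SNRPD3 (-0.38 and -0.78) were lower in both. PRPF3, the gene called in A375, measured 62.4 and 56.2 CPM with CDK4/6i and 90.9 and 87.1 CPM with PRMT5i in CHL1 (0.59, adjusted p = 0.00617), and was called with the correction as well (0.53). Against control in CHL1, however, PRPF3 was not called without the correction. With the correction its change from control was smaller in CHL1 than in A375 (difference of -0.65, adjusted p = 0.0125). SNRPE, SNRPG and SNRPD1 were called higher without the correction (1.16, 0.92 and 0.77) and stood at 0.15, -0.043 and -0.14 with it.

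The responses of the 2 lines were compared in a fit of all 18 libraries, in which cell line and library set cannot be told apart at 72 hours. For CDK4/6i at 72 hours 0 members differed between the lines, with 0 at an unadjusted p below 0.05 and 0 by DESeq2, while 0.642% of all genes differed (0.241% higher and 0.401% lower in CHL1). The median standard error of these differences was 0.287 on the log2 scale, and for SNRPD1, U2AF1, SNRPG and LSM6 the 95% intervals ran from -0.55 to 0.59, -0.47 to 0.47, -0.66 to 0.61 and -0.20 to 0.94. For PRMT5i, 29 members differed, 8 with a higher change in CHL1 and 21 with a lower one (40.9% of all genes differed, 18.8% higher and 22.1% lower). Among genes with at least 1 CPM 51.9% differed, beside 61.7% of the members. With the GC correction 11 members differed (20.6% of all genes did), 9 of them shared.
PRPF8 gives an example that was called in both fits, having measured 573.2 and 533.3 CPM in the CHL1 controls and 250.6 and 302.2 CPM after PRMT5i, but 846.5 and 948.4 CPM and then 1228 and 1395 CPM in A375. The change in CHL1 minus that in A375 was -1.58 ± 0.281 (adjusted p = 0.00049), and -1.01 with the correction. SNRPD2 (-1.77 and -1.03) and SNRPD3 (-0.78 and -1.10) likewise differed in both fits, with values in A375 of 221.2 and 255.4 CPM and then 300.9 and 364.1 CPM for SNRPD2, and of 66.1 and 77 CPM and then 80.8 and 102.8 CPM for SNRPD3. PRPF39 differed in the other direction (1.97 and 0.70). PRPF38B, by contrast, was above 0 in both lines with both fits, and its difference between lines (1.11 ± 0.269, adjusted p = 0.00333) was not called with the correction.

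Among genes that work with the members, PRMT5 itself measured 8.74 and 7.32 CPM in the CHL1 controls and 3.98 and 4.28 CPM after PRMT5i (-0.96 ± 0.199, adjusted p = 0.0016, and -0.55 with the GC correction, still called). In A375 it measured 12.7 and 15 CPM and then 16.7 and 21.5 CPM, which was not called (0.46), and was called with the replicate block (adjusted p = 0.00329). The drug blocks the enzyme, so these mRNA levels do not check the labels. CLNS1A, which brings Sm proteins to PRMT5, rose in CHL1 with PRMT5i (0.90, and 0.05 and not called with the correction). WDR77 rose in A375 at 6 days of CDK4/6i, from 16.8 and 23.3 CPM to 39.5 and 36.9 CPM (0.93 ± 0.197, adjusted p = 0.00162, and 0.79 with the correction), but its 72-hour controls measured 34.4 and 38.9 CPM. PRMT5 was called higher in that comparison (0.66) but not with the GC correction (0.34) or in a fit of the compared groups alone (0.62). Its call held in 1 of 4 fits with a library left out, and against the control of 72 hours it stood at -0.51.
The counts for these lists stand against 54% of all genes called for PRMT5i in CHL1 (26.4% higher, 27.6% lower) and 43.1% for 6 days of CDK4/6i in A375 (21.8% higher, 21.3% lower). For 6 days of CDK4/6i in CHL1 the share was 16.6% (8.83% higher, 7.8% lower). Among genes with at least 1 CPM these shares were 70%, 51.4% and 20.9%. At 72 hours of CDK4/6i 4.98% of all genes were called in CHL1 and 13.3% in A375. For PRMT5i in A375 2.61% were called against control and 5.45% against CDK4/6i. Of the 12 measured genes of snRNP assembly, such as those of the SMN complex, 0 were called with CDK4/6i in CHL1 at either time, 1 fell at 72 hours in A375 (GEMIN2, -0.83), and 6 rose and 2 fell with PRMT5i in CHL1. Of 18 other snRNP protein genes, 4 fell at 6 days of CDK4/6i in CHL1 (PHF5A, USP39, SNRNP40 and DDX46, from -0.83 to -0.57) and 0 rose, and with PRMT5i in CHL1 3 rose and 12 fell. Of 13 genes of the PRPF19 complex and its partners, 1 fell at 6 days in CHL1 (CTNNBL1, -0.64), and 8 rose and 2 fell with PRMT5i in CHL1. Of the 5 methylosome genes, 2 rose and 2 fell with PRMT5i in CHL1 and 3 rose at 6 days of CDK4/6i in A375 (PRMT5, WDR77 and COPRS). In that A375 comparison 1 assembly gene rose and 1 fell, 6 other snRNP genes rose and 2 fell, and 2 genes of the PRPF19 complex list rose and 6 fell. With the GC correction the numbers higher and lower for PRMT5i in CHL1 were 3 and 2 of the assembly genes, 1 and 5 of the other snRNP genes, 3 and 0 of the PRPF19 complex list and 0 and 1 of the methylosome genes, when 28.4% of all genes were called. At 6 days in A375 they became 0 and 0, 2 and 1, 1 and 1, and 1 and 0 in the same order, when 37.9% of all genes were called. At 72 hours of CDK4/6i in A375 CDC5L (-0.57), of the PRPF19 complex, was the 1 further gene that fell. With PRMT5i in A375 0 genes of these 3 lists or of the 5 methylosome genes were called by edgeR against control, while 1, 4, 2 and 2 respectively had an unadjusted p below 0.05. With the replicate block 3, 9, 7 and 4 were called, all higher, when 29.5% of all genes were called (14.1% higher, 15.4% lower). Their medians were 0.17, 0.26, 0.29 and 0.42, beside 0.26 for the members. Against CDK4/6i, GEMIN2, SMN1, USP39 and DDX46 were higher in A375 (0.87, 0.83, 0.75 and 1.06), though reads of SMN1 and its near-identical copy SMN2 can be split between them.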

How the data were processed

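Poly-A RNA was sequenced in paired ends. Per the methods and the submitters' processing notes, the authors aligned reads to GRCh37 with HISAT2 2.0.4, sorted and indexed the alignments (Picard 2.17.3) and counted reads on genes with HTSeq at its default settings (0.11.2 in the notes). Their own edgeR tests left out genes of low expression; the deposited table was used whole. The deposited table holds whole-number counts per gene symbol, with totals that differ between libraries, although its name points to normalized values; it was tested as raw counts. Those HTSeq defaults leave out reads that map to several places and count by strand, and whether the libraries kept the strand is not stated, so genes with pseudogenes or near-identical copies (SNRPE, SNRPG, U2AF1) or with a gene on the opposite strand (14 members) are less certain. Totals of 16213475 to 37424081 reads per library set the counting precision; with 2 libraries per group the spread between replicates limits it more.

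Groups came from the labels. The quasi-likelihood test of edgeR 4.0.16 (R 4.3.3) was run per cell line on all its libraries with TMM scaling and a prior count of 0.125, and on all 18 libraries for differences between lines; fold changes are on the log2 scale with SE from the F statistic. A call is a Benjamini-Hochberg adjusted p below 0.05 over 20705 genes. CPM use TMM library sizes. GC content came from canonical transcripts of GENCODE 44 lifted to GRCh37 (15208 genes matched by the same symbol, 1124 by an older one, 47 of 47 members); the correction entered a loess curve (span 0.4) per library as an offset. Promoters came from RefSeq (GRCh38.p14). Alternatives were DESeq2 1.42.0, a low-count filter (1 CPM or more in 2 libraries), scaling by median of ratios, only the compared groups, the GC correction, a replicate block, another control, and each library left out; leaving out the 4 libraries with a GC trend was chosen after seeing the data. Where no share of all genes called is given for such a fit, its member count cannot be read as particular to the members. The labels number the libraries of 72 hours and those of CHL1 at 6 days, so every fit with a replicate block left out the A375 libraries of 6 days. In A375 the deviations of same-numbered libraries from their group means correlated at 0.217, 0.25 and 0.476 between the 3 groups of 72 hours, each above 0.1, so these were taken as paired. These correlations run over genes of the same few libraries and do not show how the cultures were handled. The pairing was chosen from the same counts that the block fits test. The added calls of those fits are therefore no separate evidence of it. The scripts were tested on simulated data. The members, gene lists and tests were chosen with earlier results of these data known.

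Named by rule were the Sm genes, U2AF1, U2AF2, SF3B1, PRPF8, PRMT5, WDR77 and CLNS1A, and in each comparison the 3 called members with the largest rise and the 3 with the largest fall, of at least 1 CPM and not overlapping between groups (no such condition for the cell line differences). Other genes named were chosen after their values were seen. A gene that the rule would name is not reported here by name, and counts over the members include it.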

Additional observations from a re-analysis of the deposited data

Results flagged for a closer look

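The response to PRMT5i at 72 hours was tested for a difference between the lines in the fit of all 18 libraries. Of 47 members 29 differed (edgeR, adjusted p below 0.05), as did 40.9% of all genes and 51.9% of genes with at least 1 CPM. Values are the log2 change in CHL1 minus that in A375. Members higher in CHL1 included PRPF39 (1.97) and LSM5 (1.58), and those lower included PRPF31 (-1.79), SNRPD2 (-1.77), SF3B5 (-1.71), PRPF8 (-1.58), U2AF2 (-1.36), SNRPB (-1.18) and SNRPD3 (-0.78). Of their partners, PRMT5 (-1.46) and WDR77 (-0.87) were lower and CLNS1A (0.71) was higher. With the GC correction PRPF39 (0.70), SNRPD2 (-1.03), PRPF8 (-1.01), SNRPD3 (-1.10), PRMT5 (-1.02) and WDR77 (-0.78) were still called, and LSM5 (0.24), PRPF31 (-0.65), SF3B5 (-0.71), U2AF2 (-0.07) and SNRPB (-0.05) were not. The library names of the 2 lines also carry different prefixes at 72 hours, so line and library set cannot be told apart.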

How the results depend on the processing

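With the GC correction the number of members called became 4 for CHL1 CDK4/6i at 72 hours, 15 for CHL1 CDK4/6i at 6 days, 16 for CHL1 PRMT5i, 12 for A375 CDK4/6i at 72 hours, 4 for A375 PRMT5i, 16 for CHL1 PRMT5i against CDK4/6i, 18 for the same contrast in A375 and 11 for the line difference in PRMT5i response. Of the genes named by the rule and called as reported, it turned the sign of SF3B1 (-0.087), SNRPB (0.21), SNRPE (-0.13) and U2AF2 (0.015) for CHL1 PRMT5i, of SF3B1 (-0.21), SNRPD1 (-0.14) and SNRPG (-0.043) for CHL1 PRMT5i against CDK4/6i, and of CLNS1A (-0.15) for the line difference. The same genes without the correction gave counts within 1.5 times those reported. In a fit of only the compared groups the counts were 9 for CHL1 CDK4/6i at 72 hours, 19 and 9 for A375 CDK4/6i at 72 hours and 6 days, 2 for A375 PRMT5i and 25 for A375 PRMT5i against CDK4/6i. Without the libraries with a GC trend they were 3 and 14 for CHL1 CDK4/6i at 72 hours and 6 days, 15 for A375 CDK4/6i at 72 hours, 7 for A375 PRMT5i and 22 for A375 PRMT5i against CDK4/6i. DESeq2 gave 11 for CHL1 CDK4/6i at 6 days and 2 for A375 PRMT5i, and against the 72-hour control LSM14B (-0.16), SNRPD2 (-0.36) and PRMT5 (-0.51) turned sign at 6 days in A375. The replicate spread (edgeR's coefficient of variation) was 0.30 in the A375 control of 6 days and 0.068 to 0.12 in the A375 groups of 72 hours. The fit of the whole line pools them. The cause of these shifts was not tested.

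In CHL1 the same-numbered libraries were not taken as paired, since the correlations of their deviations ran from -0.338 to 0.447. The highest, between control and CDK4/6i at 72 hours, exceeded the A375 values of 0.217 and 0.25. With a replicate block, by which the A375 libraries of 72 hours were taken as paired, 25 members were called for A375 CDK4/6i at 72 hours, 25 for A375 PRMT5i and 33 for A375 PRMT5i against CDK4/6i. The A375 libraries of 6 days were not in these fits, and what their absence added was not tested. The other counts were within 1.5 times those reported. With the replicate block and the GC correction the counts were 6, 18 and 16 for CHL1 CDK4/6i at 72 hours and 6 days and CHL1 PRMT5i, 24 and 28 for A375 CDK4/6i and PRMT5i, 16 and 34 for PRMT5i against CDK4/6i in CHL1 and A375, and 1 and 20 for the line differences in CDK4/6i and PRMT5i response. The signs turned under the block with GC correction for SF3B1 (-0.10), SNRPB (0.22), SNRPE (-0.13) and U2AF2 (0.0195), against CDK4/6i for SF3B1 (-0.23), SNRPD1 (-0.15) and SNRPG (-0.060), and for CLNS1A (-0.15). No paired analysis was possible because the labels number no A375 libraries of 6 days, for that comparison.

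With 1 library left out, where the lone library is assumed to vary like the other groups, the counts ran from 0 to 4 for CHL1 CDK4/6i at 6 days, 28 to 34 for CHL1 PRMT5i, 11 to 32 for A375 CDK4/6i at 6 days, 27 to 37 and 0 to 2 for PRMT5i against CDK4/6i in CHL1 and A375, and 24 to 29 for the line difference in PRMT5i response, and were 0 throughout for both CDK4/6i comparisons at 72 hours, A375 PRMT5i and the line difference in CDK4/6i response.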
